A study of Caenorhabditis elegans with 12 samples.

Results

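Gene expression was compared between old and young adults of a long-lived Caenorhabditis elegans mutant. The animals carried daf-2(e1370) in strain CF1041 and were taken at day 1 and day 9 of adulthood, with 3 libraries at each age. These 6 libraries, picked by their titles, are part of a series of 12, and the other 6 hold wild-type N2 animals of the same days, whose values are set beside those of daf-2 where the 2 genotypes are compared. They also entered the fit, so that the spread behind each test was estimated over all 12 libraries. Each library was made from the RNA of whole animals. All 4 groups were kept on OP50 bacteria and received 50 µM FUdR, a blocker of DNA synthesis that stops the production of progeny, from the last larval stage or young adulthood onward, so every change described here happened in its presence. The labels give 3 biological repeats per condition and do not say how many animals or cultures made up each. The p-values thus measure the spread between these samples. The deposited files listed 46778 genes. A filter on low counts left 15523 of them, and the change with age was tested in all of those.

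Insulin-like peptides act in worms through the receptor that daf-2 encodes. Active receptor signals through the kinases AGE-1, PDK-1, AKT-1 and AKT-2, which keep the FOXO transcription factor DAF-16 out of the nucleus. The e1370 allele is a missense change that lowers receptor activity, so that DAF-16 is active in adults, and such mutants are known for long life, stress resistance and raised innate immunity. In the adult worm the intestine makes yolk, digests bacteria and secretes antimicrobial proteins, the epidermis makes the collagens of the cuticle, and the body wall muscle, pharynx, nervous system and germ line make up most of the rest. Fewer cells of a type and less RNA per cell cannot be told apart in RNA from whole animals.

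Levels are given as CPM, counts relative to library size after TMM scaling, which corrects for differences in library composition. Changes are log2 values of day 9 over day 1 with their standard error (±), and p-values come from the quasi-likelihood test of edgeR, adjusted by the Benjamini-Hochberg method over all genes tested. A gene is called, and said to have risen or fallen, where its adjusted p is under 0.05. Library values stand in the order of replicates 1, 2 and 3. Coordinates are those of the WBcel235 annotation.

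The 6 daf-2 libraries held 20991940 to 47447136 counts, with day 9 replicates 2 and 3 the deepest of the series. Age set the libraries apart on the first principal component, which held 73.5% of the variance. Day 1 replicate 3 stood apart from the other day 1 libraries on the second component, at -47.9 where the others had positive scores (10.2% of the variance). The markers of body wall muscle were higher in that library: unc-54, a muscle myosin heavy chain gene, had 436, 494 and 1500.0 CPM at day 1, and myo-3 had 48.1, 63.8 and 185 CPM. Defining markers of the other tissues were present as the whole-body label requires, with elt-2 of the intestine at 18.7 to 38.3 CPM, col-19 of the epidermis at 46.2 to 1677 CPM, the pan-neuronal unc-119 at 11.5 to 16.05 CPM and the oocyte gene rme-2 at 379 to 772 CPM. Values without single libraries are given beside the calls they change and the counts they change most, and smaller changes of counts are mostly left out. How far the makeup of day 1 replicate 3 bears on a result was not tested beyond leaving it out. Transcripts of daf-2 itself were at 131, 132 and 149 CPM on day 1, then 135, 149.9 and 182 CPM on day 9, and because e1370 alters the protein this level does not check the genotype.

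Between day 1 and day 9, 3395 genes (21.9% of those tested) rose in daf-2 adults and 3330 (21.5%) fell. Of these, 2019 (13%) rose and 1515 (9.76%) fell by at least 2-fold, and 101 rose and 113 fell by at least 16-fold. The single libraries of the 2 ages did not overlap for 8196 genes (52.8%). With upper-quartile scaling, which moved the median change of all genes by 0.128, the split was 4351 higher and 2602 lower, so that 62.6% of called genes were higher in place of 50.5%. Without day 1 replicate 3 the counts were 2854 and 3408. Upper-quartile scaling also turned the sign of the median change in the lists of insulin signalling, PMK-1 pathway, cytochrome P450, synaptic, oocyte and germline, splicing, nuclear hormone receptor and tubulin genes, so no direction is read from those medians.

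**Figure D1:**
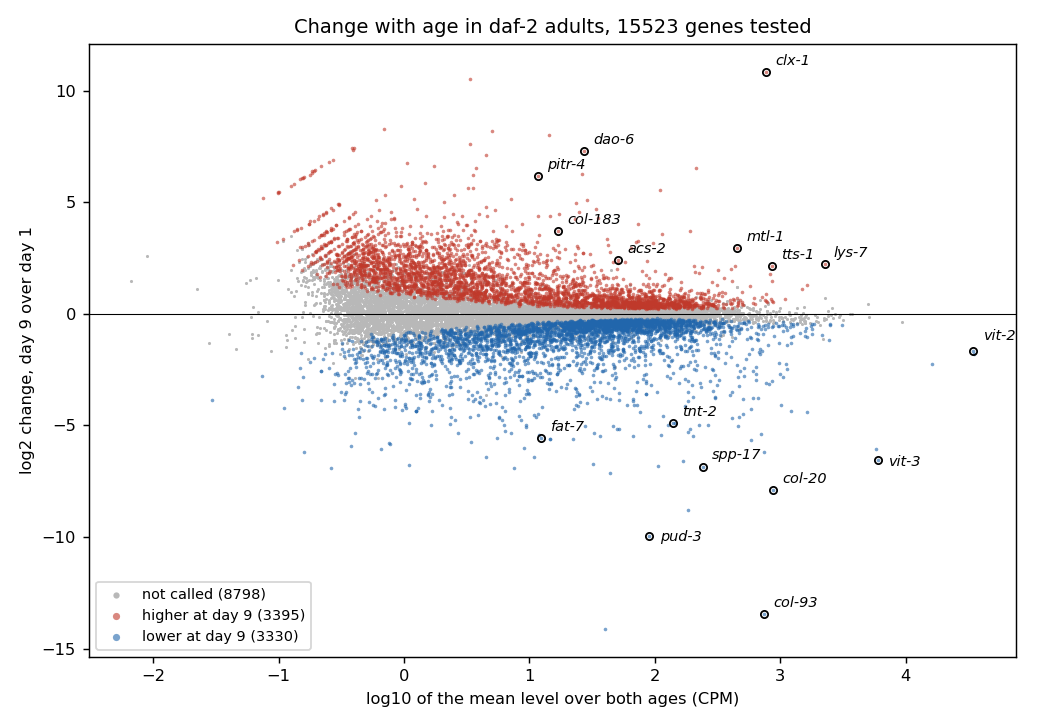
Log2 change from day 1 to day 9 in daf-2 against the mean level over both ages on a log10 axis in CPM, with 1 point per gene tested (1 gene with no count in any daf-2 library is not drawn). The 3395 higher and 3330 lower genes are coloured, and the labelled ones run from clx-1 at 10.85 to col-93 at -13.46.

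The shares of genes that rose and fell varied with abundance. Among the 107 genes with a mean over 1000 CPM, 41 fell (38.3%) and 4 rose (3.74%). In the 2814 genes under 1 CPM, 26.5% rose and 8.03% fell. The filter asked for its minimum count in only as many libraries as a group holds. A low gene could thus pass through its higher age alone, so no direction is read from these shares. Of 2107 genes on the X chromosome 13.7% rose and 24.1% fell, beside 23.2% and 21% of 13402 autosomal genes. The median change was -0.15 on the X chromosome and 0.037 on the autosomes in daf-2. Pseudogenes (32.5% of 579) and long intergenic RNAs (39.5% of 38) had larger shares higher at day 9 than protein-coding genes (21.4% of 14771). The differences between these shares were not tested, and the shares given so far by chromosome and by kind of gene are not matched for abundance. At 10 to 100 CPM, 16% of X-linked genes rose and 24.6% fell, beside 18% and 28.6% of autosomal genes. Over 100 CPM the shares were 12.7% and 47.8% on the X chromosome, beside 17.9% and 26.7%. At 1 to 10 CPM they were 12.1% and 25.2%, beside 28.7% and 17%, and under 1 CPM 12.7% and 12.7%, beside 28.7% and 7.25%. The contrast thus varied with level, which was not tested.

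**Figure D2:**
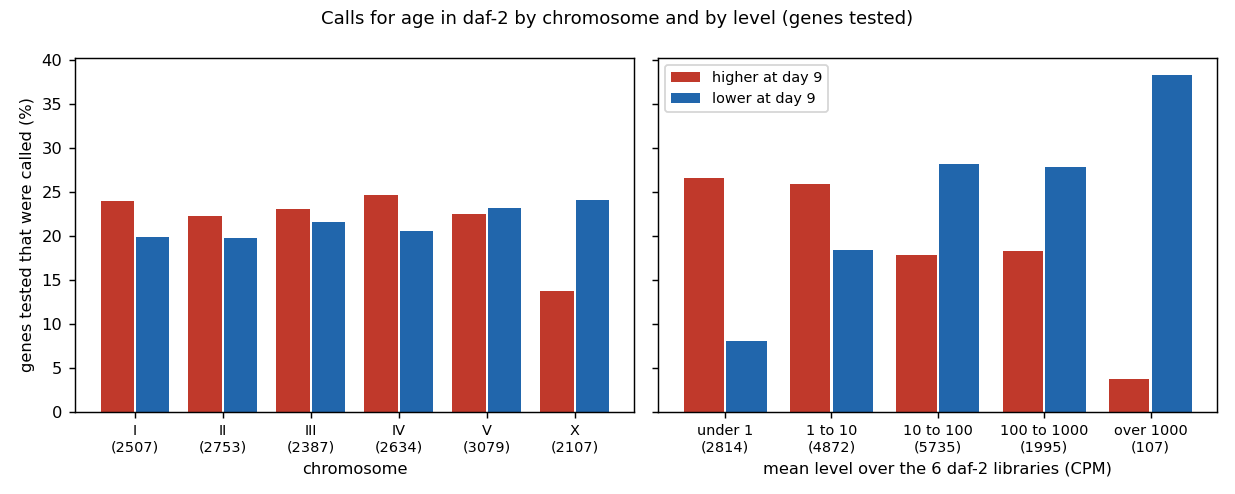
Share of genes tested that were called higher or lower at day 9 in daf-2, by nuclear chromosome and by mean level over the 6 libraries in CPM, with the number of genes tested under each pair of bars. The X chromosome has the lowest share of higher genes, 13.7%, and genes over 1000 CPM have the highest share of lower genes, 38.3%. The bars by chromosome are not matched for level.

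Yolk transcripts filled a smaller part of the old mutant's RNA. Vitellogenin genes encode the yolk proteins that the intestine makes for oocytes, and all 6 fell. Together they held 14.9, 16.47 and 10.9% at day 1 and 4.19, 2.67 and 6.06% at day 9 of library counts. No day 9 library reached the day 1 range, and p was 0.1 in an exact permutation test (two-sided), the smallest value possible with 3 libraries on each side (adjusted p = 0.157 over 11 gene classes). The size of the fall differed between the genes. The 3 genes vit-2, vit-6 and vit-5 fell by 1.65, 1.78 and 2.25 on the log2 scale, and vit-1, vit-4 and vit-3 by 4.37, 6.05 and 6.56. The gene vit-6 (IV, 8261157 to 8266459) had 55626, 67586 and 38309 CPM on day 1, then 14742, 9193 and 23185 CPM on day 9, a log2 change of -1.78 ± 0.33 (adjusted p = 0.0011). In contrast vit-1 (X, 7727889 to 7733168) had 3122, 3503 and 2626 CPM on day 1, then 194, 72.3 and 180.1 CPM on day 9 (-4.37 ± 0.34, adjusted p = 2.5e-06). Library by library, day 9 replicate 2 was the lowest and replicate 3 the highest for vit-2, vit-5 and vit-6. Near-identical sequence makes the split of reads among vit-3 to vit-5 uncertain.

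The largest gains in CPM were those of a lysozyme, an eggshell gene and a noncoding RNA, among others. At the top was lys-7 (V, 3481432 to 3482600), a lysozyme gene, which had 859, 773 and 755 CPM on day 1, then 3003, 3483 and 4693 CPM on day 9. Each day 9 library was above each day 1 library, as the naming rule required, and the change was 2.23 ± 0.23 (adjusted p = 1.6e-05). Next came clx-1 at 1.24, 0.843 and 0.386 CPM on day 1, then 750.4, 2647 and 1199 CPM on day 9, a gene close to absent at day 1. It was followed by perm-4 (IV, 1121494 to 1125107), which is needed for the eggshell's permeability barrier, at 719, 919 and 1142 CPM on day 1, then 2275, 2106 and 2528 CPM on day 9 (1.31 ± 0.18, adjusted p = 1.3e-04). The long noncoding RNA tts-1 (X, 1504131 to 1504841), known to associate with ribosomes in long-lived daf-2 mutants, rose from 338, 353 and 250.3 to 1151, 1608 and 1449 CPM (2.16 ± 0.20, adjusted p = 6.7e-06). Also among the largest gains were the transthyretin-like gene ttr-51, from 432, 446 and 217 to 1269, 1298 and 1277 CPM (1.81 ± 0.25), and cpi-1, a cystatin that inhibits cysteine proteases, from 1141, 1264 and 421 to 1855, 2640.5 and 1572 CPM (1.102 ± 0.33, adjusted p = 0.0184). The day 1 value of cpi-1 was lowest in replicate 3, without which its change was 0.71 (adjusted p = 0.028). Its call was lost without day 9 replicate 2 (0.86, adjusted p = 0.077) and in a fit of the daf-2 libraries alone (adjusted p = 0.054).

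Among genes with at least 10 CPM at their higher age, the steepest rises after clx-1, dao-6, pitr-4, fbxa-165 and fipr-24 included defence and secreted protein genes. The defensin-like gene abf-2 (I, 3885631 to 3885888) had 32.2, 36.3 and 12.9 CPM on day 1, then 272, 620.1 and 164 CPM on day 9, and the saposin-like gene spp-20 (V, 6557615 to 6558203) had 19.9, 17.8 and 2.9996 CPM on day 1, then 122.4, 202 and 59.96 CPM on day 9. Their changes were 3.70 ± 0.52 and 3.24 ± 0.56 (adjusted p = 1.6e-04 and 6.9e-04), and in both genes day 1 replicate 3 was the lowest library. The gene scl-2, which encodes a secreted protein of the SCP-like family, rose from 16.8, 15.3 and 8.74 to 115, 85.1 and 195 CPM (3.28 ± 0.35). The F-box gene fbxa-218 rose by 4.04 ± 0.41, and the cytochrome P450 gene cyp-13A5, at 38.1, 8.83 and 19.4 CPM at day 9, by 3.53 ± 0.54. A single cuticle collagen, col-183 (X, 13466643 to 13467764), stood among the 12 steepest rises, with 2.72, 3.21 and 1.37 CPM on day 1, then 27.4, 36.1 and 30.5 CPM on day 9 (3.70 ± 0.27, adjusted p = 1.5e-06).

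Of the 12 steepest falls among such genes, all but spp-17 were of cuticle collagens, pud genes and yolk. Cuticle collagens form the worm's outer coat, and of the 124 tested 73 fell (58.9%) and 9 rose (7.26%), with a median change of -2.09 against 0.011 over all genes. They held 2.22, 1.99 and 3.69% at day 1 and 0.372, 0.193 and 0.286% at day 9 of library counts, with the highest day 1 share in replicate 3 (exact two-sided permutation test, p = 0.1). The gene bli-6 (IV, 6377065 to 6378168), a collagen whose mutants have blistered cuticles, had 5.69, 6.79 and 31.9 CPM on day 1, then 0.240, 0.126 and 0.0415 CPM on day 9 (-6.89 ± 0.83, adjusted p = 5.3e-05). For col-159 the values were 40.8, 30.9 and 118 CPM on day 1, then 0.679, 0.433 and 0.725 CPM on day 9 (-6.71 ± 0.52). Both had their highest day 1 level in replicate 3, and neither overlapped between ages, as the naming rule required. Among collagens passing a stricter minimum count of 50, 48 fell and 4 rose. Among enzymes that process collagens 4 of 18 members tested rose (22.2%, beside 21.9% of all genes) and 5 fell (27.8%, beside 21.5%). The peroxidase gene skpo-1 rose by 1.08 ± 0.19. The moulting gene mlt-11 fell (-1.49 ± 0.48, adjusted p = 0.0256), but was not called without day 1 replicate 1 or 3 or day 9 replicate 2 or 3 (adjusted p = 0.054 to 0.082). The 5 that fell became 3 with upper-quartile scaling or without day 1 replicate 3 and 2 without day 1 replicate 1 or day 9 replicates 2 or 3.

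The pud genes, named for proteins that are raised in daf-2 mutants, fell as a block. They lie next to each other on chromosome V between 2322038 and 2352932, where 8 neighbouring genes all fell at least 2-fold, the 6 pud genes with irld-35 and clec-209. The C-type lectin gene clec-209, listed under 2 identifiers with equal counts, fell from 182.7, 193 and 95.7 to 9.55, 11.5 and 18.03 CPM (-3.58 ± 0.30). The copies of pud-1 and of pud-2 are near-identical, and the 2 entries named pud-2.2 held the same counts at day 9, so only sums are given. The 2 pud-1 copies together had 473, 464.5 and 301 CPM on day 1, then 11.1, 3.37 and 17.5 CPM on day 9. For the 2 pud-2 copies the sums were 453, 417.5 and 291 CPM on day 1, then 7.59, 2.16 and 11.2 CPM on day 9. The neighbouring gene pud-4 had 109, 106 and 44.9 CPM on day 1, then 0.639, 0.270 and 0.953 CPM on day 9 (-7.15 ± 0.49, adjusted p = 9.6e-07).

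Genes of the insulin signalling pathway itself went both ways, by less than 2-fold for those named here. Of the 26 tested, 9 rose (34.6%, against 21.9% of all genes) and 4 fell, with a median change of -0.0064, and the 9 became 4 without day 1 replicate 1 and 5 without day 9 replicate 3. The kinase genes akt-1 and akt-2, which act below the receptor, rose by 0.36 ± 0.10 and 0.71 ± 0.14, a call that akt-1 lost without day 1 replicate 1 or day 9 replicate 3 (adjusted p = 0.055 and 0.066). The gene rict-1, which encodes the Rictor subunit of TOR complex 2, had 84.5, 94.5 and 107 CPM on day 1, then 149, 175 and 168 CPM on day 9 (0.78 ± 0.11, adjusted p = 1.4e-04). Falling members were the kinase gene sgk-1 (-0.67 ± 0.18), the 14-3-3 genes par-5 (-0.54 ± 0.11) and ftt-2 (-0.49 ± 0.099), whose proteins bind phosphorylated DAF-16, and the deacetylase gene sir-2.1 (-0.30 ± 0.081), which was not called with upper-quartile scaling (adjusted p = 0.12). Transcripts of daf-16 were at 125, 143 and 151 CPM on day 1, then 163, 188 and 188 CPM on day 9, a rise of 0.36 ± 0.11 (adjusted p = 0.0217). That call was lost without day 1 replicate 1 (0.28, adjusted p = 0.083), day 9 replicate 2 (0.33, adjusted p = 0.074) or day 9 replicate 3 (0.33, adjusted p = 0.067).

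The ligands of the receptor went both ways. Of 27 insulin-like peptide genes tested, 6 rose (22.2%, beside 21.9% of all genes) and 5 fell (18.5%, beside 21.5%), shares close to those of all genes. The best measured rise was that of ins-22 (III, 10026289 to 10026686), from 1.90, 1.95 and 1.59 to 16.11, 9.37 and 22.6 CPM (3.14 ± 0.33, adjusted p = 1.7e-05). Levels of ins-33 fell from 1.90, 2.11 and 4.67 to 0.360, 0.216 and 0.207 CPM (-3.51 ± 0.46, adjusted p = 9.8e-05), and those of ins-6, an agonist of the receptor, from 1.07, 1.37 and 2.44 to 0.480, 0.577 and 0.871 CPM (-1.32 ± 0.37), a call lost without day 1 replicate 3 or day 9 replicate 2 (adjusted p = 0.064 and 0.051). The 5 falls became 1 with a minimum count of 50 and 3 without day 9 replicate 2. The gene ins-7, an agonist of the receptor that DAF-16 represses, had 0.990, 1.21 and 1.07 CPM on day 1, then 0.520, 0.288 and 0.725 CPM on day 9, and its change of -1.101 was not called (adjusted p = 0.102). It was called with DESeq2 (adjusted p = 0.0395) and without wild-type day 1 replicate 3 (adjusted p = 0.022).

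Known DAF-16 targets included more that rose than fell in old daf-2 adults. In this list 13 of 26 members tested rose (50%, beside 21.9% of all genes) and 4 fell (15.4%, beside 21.5%), with a median of 0.48. The 13 became 9 without day 1 replicate 3. The summed level of the list was 6495, 7474 and 6608 CPM in the day 1 libraries and 9097, 10860 and 11930 CPM in those of day 9, higher at day 9 in each library. The metallothionein gene mtl-1 (V, 6691371 to 6691863) had 125, 118 and 71.4 CPM on day 1, then 617, 849.9 and 941 CPM on day 9 (2.94 ± 0.44, adjusted p = 2.5e-04). The linker histone gene hil-1 rose from 36.7, 35.2 and 25.4 to 107, 137 and 129 CPM (1.94 ± 0.16), the catalase gene ctl-1 by 1.07 ± 0.20 and the trehalose-phosphate synthase gene tps-1 by 1.04 ± 0.17. Of the 4 that fell, the largest fall was of dct-16, from 1482, 1535 and 1083 to 158, 118 and 209 CPM (-3.08 ± 0.24), followed by mtl-2, the other metallothionein (-2.30 ± 0.48). The superoxide dismutase gene sod-3, a standard reporter of DAF-16, had 51.6, 56.2 and 49.5 CPM on day 1, then 35.6, 84.9 and 54.2 CPM on day 9 and was not called (adjusted p = 0.634).

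Genes listed as repressed by DAF-16 fell where they were called: 0 of 18 members tested rose (beside 21.9% of all genes) and 8 fell (44.4%, beside 21.5%), with a median of -1.58. The gene fat-7 (V, 7151353 to 7153146), a stearoyl-CoA desaturase that makes oleic acid, had 25.99, 23.5 and 23.7 CPM on day 1, then 0.480, 0.397 and 0.643 CPM on day 9 (-5.58 ± 0.26, adjusted p = 4.5e-08). Its day 9 libraries lay far below and close together. The genes dod-17 and dod-20, named for acting downstream of DAF-16, fell (-5.32 and -4.097), and the list also holds vit-2 and vit-5. For this list and the targets the literature direction was known from daf-2 mutants, so neither is independent evidence of a direction.

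Transcription factors of longevity and stress went both ways. Of 36 tested 10 fell (27.8%, beside 21.5% of all genes) and 5 rose (13.9%, beside 21.9%), and with upper-quartile scaling 8 fell and 7 rose. The 5 became 3 with no filter on low counts or without day 9 replicates 1 or 2 and 2 without day 1 replicate 1 or day 9 replicate 3. The largest fall was of blmp-1 (I, 10409302 to 10414773), a zinc-finger repressor, at 33.9, 31.4 and 24.98 CPM on day 1, then 7.83, 6.58 and 9.18 CPM on day 9 (-1.94 ± 0.16, adjusted p = 3.2e-06). The gene atf-4, a bZIP factor of the integrated stress response, fell from 116, 122.6 and 103 to 42.8, 30.7 and 46.1 CPM (-1.52 ± 0.19). Others that fell were atfs-1 of the mitochondrial unfolded protein response (-0.78 ± 0.11), the intestinal GATA factor elt-2 (-0.64 ± 0.16) and the hypoxia factor hif-1 (-0.52 ± 0.13). Higher at day 9 was nhr-62, a nuclear hormone receptor gene, from 21.99, 22.5 and 19.03 to 34.6, 30.5 and 38.3 CPM (0.70 ± 0.16). The heat shock factor gene hsf-1 (76.2, 91.9 and 95.3 CPM on day 1, then 72.5, 77.1 and 79.2 CPM on day 9) and the detoxification factor gene skn-1 (193, 247 and 259 CPM on day 1, then 239, 262 and 267 CPM on day 9) were not called (adjusted p = 0.124 and 0.399), though hsf-1 was called without day 1 replicate 1 (-0.30, adjusted p = 0.031). The bZIP gene zip-10 fell from 58.1, 31.8 and 36.6 to 26.4, 12.5 and 20.3 CPM (-1.11 ± 0.32, adjusted p = 0.0155), a call lost without day 1 replicate 1 (-0.81, adjusted p = 0.073) or day 9 replicate 2 (-0.86, adjusted p = 0.06).

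Effectors of the p38 kinase PMK-1, which acts in a main pathway of intestinal immunity, were mostly lower in old daf-2 adults. Of 19 effectors 13 fell (68.4%, beside 21.5% of all genes) and 0 rose (beside 21.9%), with a median of -3.09, and the rises became 1 without day 1 replicate 3 and 2 without day 9 replicate 2. Their summed level was 2059, 2047 and 998 CPM in the day 1 libraries and 449, 279.7 and 893 CPM in those of day 9, and day 9 replicate 3 came closest to day 1 replicate 3. The C-type lectin gene clec-67 (IV, 3922165 to 3925039) had 137, 162 and 87.9 CPM on day 1, then 7.75, 3.17 and 24.5 CPM on day 9 (-3.44 ± 0.55, adjusted p = 3.9e-04), and F55G11.8 fell from 7.43, 5.58 and 6.56 to 0.120, 0.126 and 0.497 CPM (-4.62 ± 0.45). Of 16 pathway components, 3 rose (18.8%, beside 21.9% of all genes) and 1 fell (6.25%, beside 21.5%). The second p38 gene pmk-2 (IV, 8143500 to 8148648) rose from 9.37, 6.53 and 8.87 to 26.02, 30.2 and 23.6 CPM (1.69 ± 0.16, adjusted p = 1.1e-05), the pseudokinase gene nipi-3 by 0.79 ± 0.11 and pmk-1 by 0.37 ± 0.12 (adjusted p = 0.0258). Transcripts of atf-7, the bZIP factor that PMK-1 phosphorylates, fell by 0.50 (adjusted p = 0.0016), and the falls in this list became 2 with DESeq2, in a fit of the daf-2 libraries alone or without wild-type day 1 replicates 1 or 2 or daf-2 day 1 replicates 2 or 3. The call of pmk-1 was lost without day 1 replicate 2 (0.28, adjusted p = 0.104) or 3 (0.36, adjusted p = 0.056), or day 9 replicate 2 (0.33, adjusted p = 0.09) or 3 (0.37, adjusted p = 0.06).

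Antimicrobial families divided by gene. Lysozymes cleave bacterial cell walls, and among 13 tested 2 rose (15.4%, beside 21.9% of all genes) and 5 fell (38.5%, beside 21.5%). The 5 became 7 without day 1 replicate 3. Besides lys-7, ilys-3 (IV, 2464456 to 2465443) rose from 1.65, 1.32 and 0.814 to 15.9, 12.2 and 7.38 CPM (3.22 ± 0.36, adjusted p = 3.4e-05). In contrast lys-2 (V, 10280307 to 10281474) had 1735, 1834 and 976 CPM on day 1, then 198, 50.4 and 309.9 CPM on day 9 (-3.03 ± 0.50), and lys-1 fell from 1203, 1269 and 656 to 206, 92.8 and 229 CPM (-2.57 ± 0.32). The family held 0.444, 0.401 and 0.273% at day 1 and 0.445, 0.448 and 0.619% at day 9 of library counts, where day 9 replicate 1 lay just above the highest day 1 library (exact two-sided permutation test, p = 0.1). Outside vitellogenin counts, which fell, the share differed between ages by 0.0915 percentage points (exact two-sided permutation test, p = 0.6). In summed levels the ages overlapped, with 4844, 4891 and 2876 CPM in the day 1 libraries and 3731, 3834 and 5842 CPM in those of day 9.

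Saposin-like proteins, which permeabilise membranes, fell more often: 5 of 24 members tested rose (20.8%, beside 21.9% of all genes) and 13 fell (54.2%, beside 21.5%), with a median of -0.99. The gene spp-17 (I, 1016405 to 1017176) had 562, 501 and 363 CPM on day 1, then 4.12, 4.65 and 3.65 CPM on day 9, a fall to near-equal levels in all 3 day 9 libraries (-6.84 ± 0.26, adjusted p = 1.1e-08). Expression of spp-5 fell from 1431, 1259 and 766 to 419.9, 278 and 612 CPM (-1.3996 ± 0.29), whereas spp-12, spp-31 and spp-28 rose by 1.80, 1.78 and 1.65. The call of spp-12 was lost without day 1 replicates 2 or 3 or day 9 replicates 1 or 2 (adjusted p = 0.059 to 0.098). The fall of spp-9 (5.53, 6.16 and 33.7 to 3.64, 2.51 and 0.560 CPM, -2.80 ± 0.78) rested on day 1 replicate 3 and was not called without it (-1.46, adjusted p = 0.085).

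Epidermal peptides rose more often than they fell, with 9 of 19 caenacins and related peptides higher (47.4%, beside 21.9% of all genes) and 4 lower (21.1%, beside 21.5%). The caenacin gene cnc-4 (V, 1447195 to 1447707) had 4.91, 4.05 and 2.57 CPM on day 1, then 29.5, 16.17 and 25.6 CPM on day 9 (2.62 ± 0.26, adjusted p = 1.1e-05), and cnc-6, cnc-1 and cnc-11 rose by 5.15, 3.85 and 2.58. Yet nlp-24, of the same peptide group, fell from 43.9, 39.1 and 45.7 to 2.56, 1.89 and 2.40 CPM (-4.24 ± 0.19). Among 14 fungus-induced and related peptides 5 rose (35.7%, beside 21.9% of all genes) and 3 fell (21.4%, beside 21.5%). Levels of fipr-24 were 37.3, 57.7 and 37.7 CPM at day 9 (4.25 ± 0.21), and fipr-13 fell by 3.18. The 3 falls became 1 with a minimum count of 50 or in a fit of the daf-2 libraries alone and 5 with DESeq2 or without day 1 replicate 2 or day 9 replicate 1. Of 118 C-type lectin genes 39 fell (33.1%) and 21 rose (17.8%), with clec-61 rising from 1.11, 1.42 and 1.71 to 12.63, 11.99 and 9.14 CPM (2.99 ± 0.28).

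**Figure D3:**
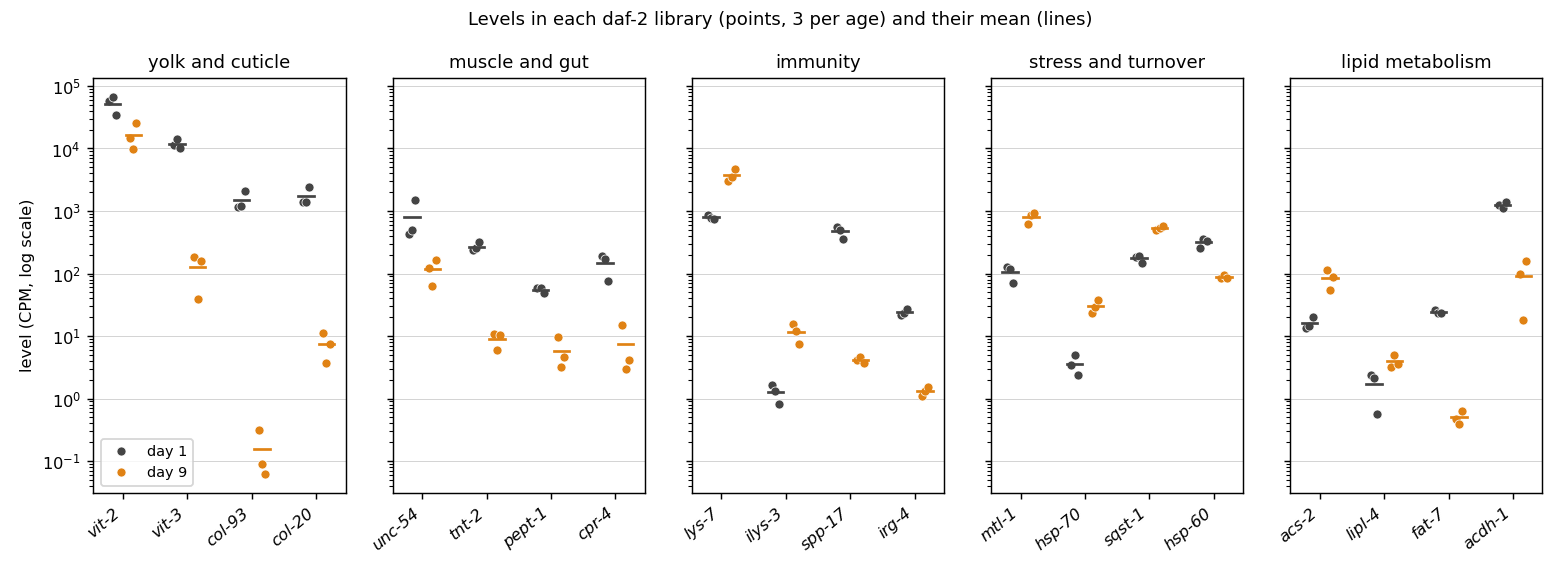
Levels in CPM on a log axis of 20 genes in the 6 daf-2 libraries, with day 1 in grey and day 9 in orange, 1 point per library and a line at the mean. The ages do not overlap for any gene shown, which the naming rule required of most of them, and they did not overlap for 52.8% of all genes tested. In unc-54 and lipl-4 day 1 replicate 3 lies apart from the other day 1 libraries.

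Digestive and absorptive genes of the intestine were lower. Of 25 intestinal genes 17 fell (68%) and 3 rose, with a median of -1.53, and the 3 became 1 without day 1 replicate 3 or day 9 replicate 2. Their summed level was 6508, 7176 and 4823 CPM in the day 1 libraries and 2172, 1935 and 2789 CPM in those of day 9. The peptide transporter gene pept-1 (X, 6456872 to 6461767) had 59.4, 58.9 and 48.1 CPM on day 1, then 9.63, 3.17 and 4.62 CPM on day 9 (-3.29 ± 0.35, adjusted p = 2.1e-05). The gene act-5, whose actin builds the microvilli of the gut, fell from 775, 904 and 588 to 92.1, 34.9 and 73.3 CPM (-3.50 ± 0.31), and the intermediate filament gene ifb-2 of the gut's inner web from 150.4, 174 and 124 to 28.1, 7.59 and 20.5 CPM (-3.01 ± 0.35). The acid phosphatase gene pho-1 fell by 5.09 on the log2 scale. For each of these the lowest day 9 library was replicate 2, which was also the lowest in yolk. The intestinal marker ges-1 was not called, with 72.4, 72.8 and 37.8 CPM on day 1, then 37.5, 36.3 and 70.6 CPM on day 9 (-0.34, adjusted p = 0.319).

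Proteases of the gut and lysosome followed. Of 8 cathepsin B-like protease genes 7 fell and 0 rose (1 without day 1 replicate 3), with a median of -2.2005, and 8 of 13 aspartyl protease genes fell with none called higher. The gene cpr-4 (V, 6614674 to 6615851) had 189.9, 170.4 and 76.8 CPM on day 1, then 14.8, 2.97 and 4.21 CPM on day 9 (-4.38 ± 0.59, adjusted p = 1.2e-04). For asp-1, which is made in the intestine, the values were 922, 1093 and 588 CPM on day 1, then 151, 58.4 and 272 CPM on day 9 (-2.43 ± 0.42). The largest fitted fall of the aspartyl proteases, asp-18 (-4.77), came from day 1 replicate 3, which had 45.7 CPM against 1.53 and 1.90 in the others, and was not called without it (-1.51, adjusted p = 0.265).

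Acidification and autophagy genes moved apart. The vacuolar ATPase pumps protons into lysosomes and, in the gut and the excretory cell, across outer membranes. Of its 21 subunit genes 17 fell and none rose, with a median of -0.67. The gut subunit vha-6 (II, 11435210 to 11438452) had 285, 309 and 223 CPM on day 1, then 76.5, 76.0 and 109 CPM on day 9 (-1.64 ± 0.19), and vha-12 fell from 263, 286 and 299.6 to 103, 93.6 and 117 CPM (-1.44 ± 0.11, adjusted p = 2.0e-06). Of 28 autophagy genes 11 rose (39.3%) and 0 fell, and 17 rose with upper-quartile scaling and 8 without day 1 replicate 3. The cargo receptor gene sqst-1 (IV, 12034282 to 12036891) had 185, 188 and 149.9 CPM on day 1, then 501, 536 and 568 CPM on day 9 (1.62 ± 0.11, adjusted p = 1.1e-06). Smaller rises were those of the initiating kinase gene unc-51 (0.62 ± 0.12), the Beclin gene bec-1 (0.56 ± 0.098) and lgg-1, which encodes the Atg8 protein of autophagosomes (0.45 ± 0.13). The call of lgg-1 was lost without day 1 replicates 2 or 3 or day 9 replicates 1 or 3 (adjusted p = 0.051 to 0.088).

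Chaperones went different ways in different compartments. The endoplasmic reticulum list, which is not limited to chaperones, was mostly higher: 13 of 21 genes rose (61.9%) and 0 fell, with a median of 0.38. The GRP94 gene enpl-1 (IV, 11119298 to 11123155) had 511, 552 and 553 CPM on day 1, then 913, 975 and 1118 CPM on day 9 (0.90 ± 0.11, adjusted p = 7.5e-05), and the calreticulin gene crt-1 875, 773 and 849.8 CPM on day 1, then 1176, 1225 and 1603 CPM on day 9 (0.68 ± 0.15). The 1 member of this list that rose at least 2-fold was ckb-2, a choline kinase gene and not a chaperone (1.17 ± 0.15). The 13 became 8 without day 1 replicates 2 or 3 or day 9 replicate 3 and 7 without day 9 replicate 1. The mitochondrial list showed the reverse, with 10 of 14 lower and 0 higher (1 with upper-quartile scaling). In it hsp-60 (III, 1619742 to 1625803), the chaperonin of the mitochondrial matrix, had 254, 362 and 325 CPM on day 1, then 83.3, 93.9 and 83.5 CPM on day 9 (-1.85 ± 0.22, adjusted p = 4.4e-05), and the prohibitin gene phb-2 fell by 1.15.

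In the cytosol the constitutive machinery fell, with 17 of 32 members lower and 2 higher. Subunits of the chaperonin that folds actin and tubulin were among them, cct-8 from 193, 317 and 274 to 129, 129 and 119.8 CPM (-1.05 ± 0.17) and cct-5 at -0.85, with hsp-110 at -0.79. The 2 that rose were the inducible HSP70 gene hsp-70 (I, 9320325 to 9322519), at 3.47, 4.90 and 2.40 CPM on day 1, then 23.1, 29.4 and 37.6 CPM on day 9 (3.07 ± 0.35, adjusted p = 3.3e-05), and F44E5.5 (1.99 ± 0.63), which was not called without day 1 replicates 2 or 3 or day 9 replicate 3 (adjusted p = 0.081 to 0.096). They became 4 with upper-quartile scaling and 1 without day 1 replicates 2 or 3 or day 9 replicate 3. Among 13 small heat shock genes 3 fell (23.1%, beside 21.5% of all genes) and 6 rose (46.2%, beside 21.9%), and the 6 became 3 without day 1 replicate 3 or day 9 replicate 3. These were hsp-12.6, hsp-12.3 and 4 hsp-16 genes, whose near-identical pairs make single values uncertain. The call of hsp-12.3 was lost in a fit of the daf-2 libraries alone or without day 1 replicates 1 or 3 or day 9 replicate 2 (adjusted p = 0.088 to 0.4). In contrast hsp-17 fell from 74.7, 79.9 and 43.3 to 28.3, 14.4 and 30.3 CPM (-1.44 ± 0.26).

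Transcripts of protein synthesis and degradation fell more often than they rose, by less than 2-fold for most. Of 83 cytosolic ribosomal protein genes 28 fell (33.7%, beside 21.5% of all genes) and 1 rose, with a median of -0.27. The gene rps-2 (IV, 7925298 to 7926391) had 1652, 1837 and 1426 CPM on day 1, then 815, 777 and 783 CPM on day 9 (-1.05 ± 0.15, adjusted p = 2.0e-04) and rpl-3 fell by 0.93, whereas rpl-24.2 rose by 0.44 ± 0.10. The 28 became 19 with upper-quartile scaling, 42 without day 1 replicate 3, 15 without day 1 replicate 2 and 16 without day 9 replicate 2, and the 1 rise became 2 with upper-quartile scaling, with a minimum count of 50, with DESeq2, with a replicate block or without day 1 replicate 2. As a share of counts before TMM scaling these genes held 11.3, 11.43 and 9.69% at day 1 and 11.3, 11.5 and 11.2% at day 9, and the ages overlapped (exact two-sided permutation test, p = 0.6). Of 35 translation factors 17 fell and 2 rose, among them eif-3.H, from 164, 178 and 144 to 79.4, 82.5 and 76.8 CPM (-1.03 ± 0.11), while the poly(A)-binding protein gene pab-2 rose by 1.07 ± 0.15. Of 26 ribosome biogenesis genes 7 fell (26.9%, beside 21.5% of all genes) and 2 rose (7.69%, beside 21.9%), with rbd-1 at -0.68 ± 0.13 and lpd-7 at 0.62 ± 0.14. The 7 became 3 with upper-quartile scaling, 4 without day 1 replicate 2 and 11 without day 1 replicate 3. The 2 became 1 without day 1 replicate 3 or day 9 replicate 2. Proteasome subunits degrade ubiquitin-tagged proteins, and 14 of 33 fell with none called higher, led by pas-2 at 219.7, 247 and 213 CPM on day 1, then 128, 126.01 and 134 CPM on day 9 (-0.81 ± 0.11). The 14 became 8 with upper-quartile scaling or without day 9 replicate 2, 9 with no filter on low counts, 6 without day 1 replicate 2 and 7 without day 9 replicate 1, and the rises 2 with upper-quartile scaling.

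After TMM scaling, mitochondrial genes fell together. All 12 protein-coding genes of the mitochondrial genome fell, with a median of -1.06, among them ND6, from 6.39, 6.003 and 3.99 to 2.04, 2.199 and 1.39 CPM (-1.54 ± 0.29), and COX3, from 1167, 1383 and 946 to 817, 817 and 756 CPM (-0.55 ± 0.15), a call lost without day 1 replicate 2 (adjusted p = 0.054). Among 73 nuclear-encoded respiratory chain subunits 44 were lower (60.3%) and 0 higher, with a median of -0.41. At an unadjusted p under 0.05 edgeR had 4 higher, and the rises called became 1 with DESeq2's size factors, with no filter on low counts, with DESeq2 or without wild-type day 1 replicates 1 or 2, wild-type day 9 replicate 3, daf-2 day 1 replicate 3 or daf-2 day 9 replicate 3, 4 with upper-quartile scaling, 3 with a minimum count of 50 and 2 with counts thinned to the smallest library. As a share of counts before TMM scaling these 73 genes held 1.19, 1.21 and 1.29% at day 1 and 1.19, 1.25 and 1.15% at day 9. The ages overlapped (exact two-sided permutation test, p = 0.5). Outside vitellogenin counts the day 9 minus day 1 share was -0.181 percentage points (exact two-sided permutation test, p = 0.1). The ATP synthase gene asg-2 (X, 6841258 to 6842121) had 87.6, 77.9 and 84.0 CPM on day 1, then 37.6, 32.8 and 36.3 CPM on day 9 (-1.23 ± 0.12, adjusted p = 1.5e-05). The ribosome of the mitochondrion had 58 of 69 genes lower (84.1%), a median of -0.62 and 6 falls of at least 2-fold. Its gene mrpl-12 (III, 10707761 to 10708521) had 48.9, 57.3 and 47.7 CPM on day 1, then 19.9, 20.2 and 20.7 CPM on day 9 (-1.34 ± 0.12), and the 1 member that rose was mrpl-18, by 0.40 ± 0.083.

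Carbon metabolism followed with 22 of 43 genes of glycolysis and the tricarboxylic acid cycle lower and 0 higher, where edgeR had 1 higher at an unadjusted p under 0.05. The rises called became 1 with upper-quartile scaling, with no filter on low counts, with DESeq2, with a replicate block, in a fit of the daf-2 libraries alone or without wild-type day 9 replicates 1 or 3 or daf-2 day 9 replicate 3. The isocitrate dehydrogenase gene idhg-2 (I, 6974558 to 6977071) had 26.3, 28.5 and 29.6 CPM on day 1, then 5.95, 6.18 and 5.33 CPM on day 9 (-2.27 ± 0.15, adjusted p = 6.5e-07), and dld-1, the lipoamide dehydrogenase shared by several mitochondrial enzyme complexes, fell from 182, 259.5 and 244 to 81.9, 90.9 and 83.5 CPM (-1.42 ± 0.14). Of 20 genes for trehalose synthesis, the glyoxylate cycle and gluconeogenesis 7 were lower (35%, beside 21.5% of all genes) and 2 higher (10%, beside 21.9%). The gluconeogenic gene pck-1 fell from 175, 203 and 227 to 70.1, 116 and 72.5 CPM (-1.23 ± 0.19), and tps-1 rose from 44.6, 47.5 and 51.8 to 79.4, 119.97 and 95.6 CPM.

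Lipid metabolism genes were mostly lower, with single exceptions that rose strongly. Of 25 genes of fatty acid synthesis, desaturation and elongation 15 fell and 4 rose. After fat-7, the elongase genes elo-2 and elo-5 fell from 116, 111.6 and 127 to 35.05, 21.04 and 35.7 CPM (-1.95 ± 0.30) and from 175, 169 and 147 to 66.4, 27.8 and 65.6 CPM (-1.62 ± 0.29). The desaturase gene fat-3, which acts on polyunsaturated fatty acids, rose from 122.6, 126.5 and 95.9 to 178, 166 and 184 CPM (0.61 ± 0.13). Of 38 fatty acid oxidation genes 22 fell and 6 rose. The acyl-CoA dehydrogenase gene acdh-1 (I, 6497436 to 6499560) had 1235, 1126 and 1374 CPM on day 1, then 96.5, 18.1 and 158 CPM on day 9, with day 9 replicate 2 the lowest (-3.78 ± 0.56, adjusted p = 2.3e-04). Against it acs-2 (V, 15567394 to 15569897), an acyl-CoA synthetase gene induced by fasting, had 13.4, 14.4 and 20.2 CPM on day 1, then 116, 53.9 and 87.8 CPM on day 9 (2.42 ± 0.62, adjusted p = 0.0078). The carnitine palmitoyltransferase genes cpt-4 and cpt-3 rose by 2.27 ± 0.46 and 1.499 ± 0.39, and the peroxisomal acyl-CoA oxidase gene acox-1.3 fell by 3.47.

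Lipases and lipid carriers were divided. Of 11 lipase genes 4 fell (36.4%, beside 21.5% of all genes) and 2 rose (18.2%, beside 21.9%). The lysosomal lipase gene lipl-5 (V, 385746 to 387740) fell from 598, 585 and 308 to 73.7, 54.98 and 135 CPM (-2.50 ± 0.37), and lipl-4, another lysosomal lipase, rose from 2.39, 2.11 and 0.557 to 3.20, 5.03 and 3.63 CPM (1.24 ± 0.45, adjusted p = 0.0426). The call of lipl-4 was lost in a fit of the daf-2 libraries alone, with counts thinned to the smallest library or without daf-2 day 1 replicates 2 or 3, daf-2 day 9 replicates 1, 2 or 3 or wild-type day 9 replicates 1, 2 or 3 (adjusted p = 0.0501 to 0.14). The other rise, hosl-1 (0.49 ± 0.18, adjusted p = 0.0404), was not called in a fit of the daf-2 libraries alone, nor without any 1 of the day 9 libraries of either genotype, wild-type day 1 replicate 3, or daf-2 day 1 replicates 1 or 2 (adjusted p = 0.0504 to 0.152). The 2 rises became 1 with counts thinned to the smallest library or without wild-type day 1 replicate 3, daf-2 day 1 replicates 1 or 3 or daf-2 day 9 replicate 2 and 0 in a fit of the daf-2 libraries alone or without wild-type day 9 replicates 1, 2 or 3, daf-2 day 1 replicate 2 or daf-2 day 9 replicates 1 or 3. Among 17 lipid-binding protein genes 8 fell (47.1%, beside 21.5% of all genes) and 4 rose (23.5%, beside 21.9%). Levels of lbp-7 were 28.3, 30.2 and 19.4 against 2.84, 2.11 and 2.74 CPM (-3.35 ± 0.24), and far-7 rose by 1.44 ± 0.23. The 4 became 1 in a fit of the daf-2 libraries alone or without day 9 replicate 3 and 2 without day 1 replicates 1 or 3.

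Detoxification enzymes fell more often than they rose, apart from the cytochrome P450 family. Glutathione S-transferases attach glutathione to reactive compounds, and 22 of 39 fell (56.4%) while 5 rose. The gene gst-27 (II, 15164890 to 15165731) had 45.2, 44.1 and 47.5 CPM on day 1, then 4.16, 1.21 and 2.82 CPM on day 9 (-4.11 ± 0.32, adjusted p = 2.3e-06). It sits in a run of 5 neighbours on chromosome II, gst-26 to gst-29 and gst-39, that all fell at least 2-fold (-4.11 to -1.64). In the other direction gst-15 rose from 4.17, 4.84 and 3.60 to 10.03, 17.8 and 16.46 CPM (1.82 ± 0.23). Of 63 UDP-glycosyltransferase genes 33 fell (52.4%) and 6 rose, with ugt-65 at -3.63 ± 0.28 and ugt-1 rising from 14.1, 12.85 and 15.2 to 35.2, 55.6 and 63.3 CPM (1.87 ± 0.30), and the 6 became 3 without day 1 replicate 3 or day 9 replicate 1. Of 62 cytochrome P450 genes 16 fell (25.8%, beside 21.5% of all genes) and 13 rose (21%, beside 21.9%). The 16 became 9 without day 9 replicate 2. The gene cyp-35A2, a xenobiotic-induced member, fell from 85.2, 94.6 and 75.4 to 23.7, 16.7 and 30.5 CPM (-1.85 ± 0.23).

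Antioxidant genes showed no common direction, with 9 of 29 superoxide dismutases, catalases, peroxiredoxins and related genes higher (31%, beside 21.9% of all genes) and 11 lower (37.9%, beside 21.5%). The extracellular superoxide dismutase gene sod-4 (III, 9496884 to 9500375) had 13.9, 13.2 and 10.4 CPM on day 1, then 32.7, 40.6 and 26.7 CPM on day 9 (1.42 ± 0.17, adjusted p = 4.7e-05), and sod-5 rose from 0.619, 1.11 and 0.429 to 4.72, 10.2 and 3.54 CPM (3.12 ± 0.55). The methionine sulfoxide reductase gene msra-1 fell from 71.5, 57.6 and 63.5 to 11.5, 10.98 and 9.99 CPM (-2.57 ± 0.20), and sod-1 and sod-2 by 0.77 and 0.48. Of the metal-binding proteins, mtl-1 and the ferritin gene ftn-1 rose (2.94 and 1.31) and mtl-2 and ftn-2 fell by 2.30 and 1.15. The call of ftn-1 was lost with DESeq2, with a replicate block or without day 1 replicate 3 or day 9 replicate 3 (adjusted p = 0.053 to 0.15), which left 1 rise.

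**Figure D4:**
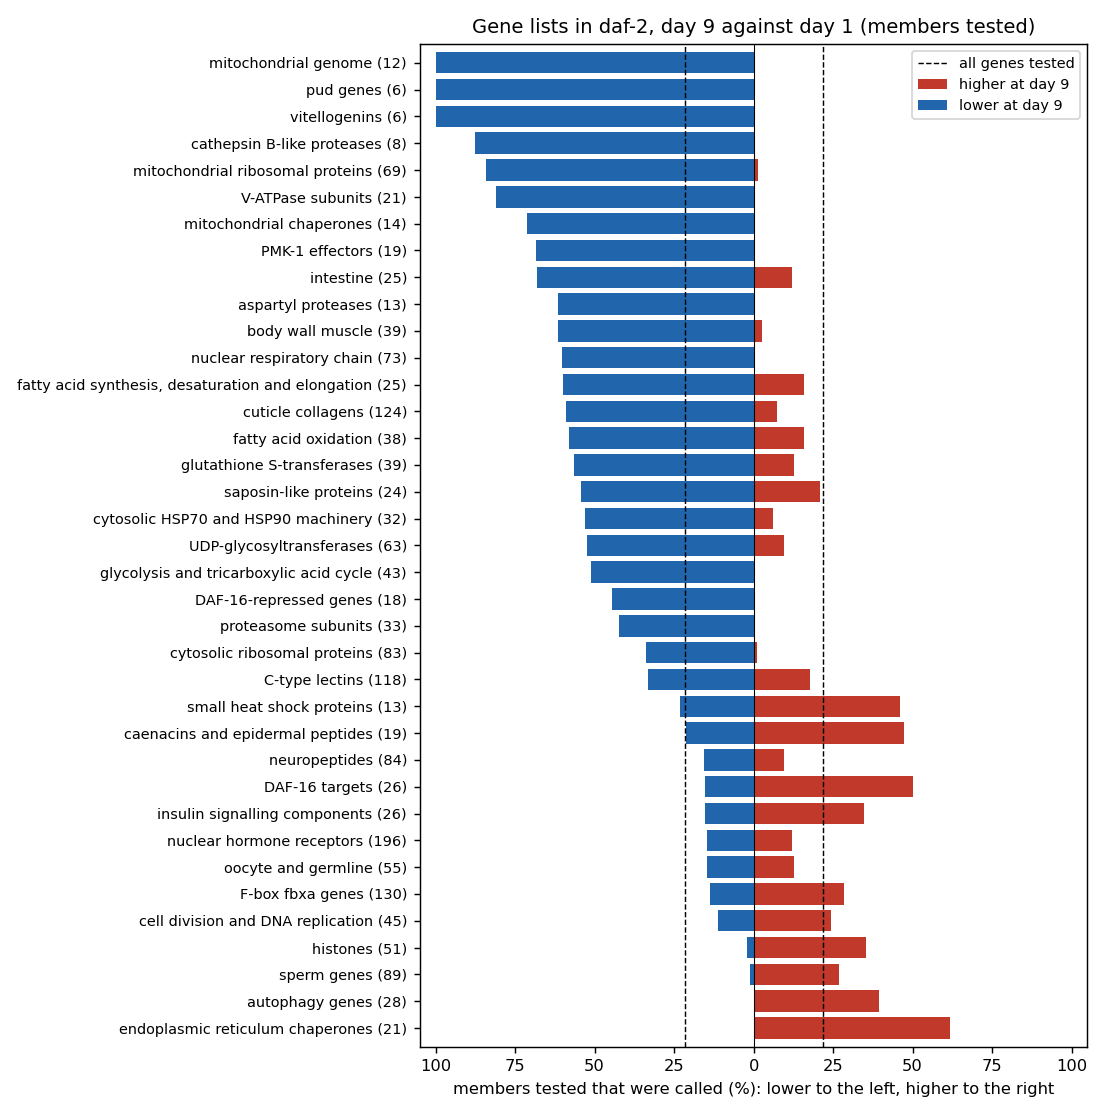
Percentage of the tested members of 37 gene lists that were called lower (blue, to the left) or higher (red, to the right) at day 9 in daf-2, with the number tested in parentheses and dashed lines at the values of all genes, 21.5% and 21.9%. The mitochondrial genome, pud and vitellogenin lists are wholly lower. The list labelled endoplasmic reticulum chaperones, which also holds the choline kinase gene ckb-2, has the largest share higher, 61.9%.

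Muscle genes were lower in the old mutant. In the body wall muscle list of 39 genes 24 were lower (61.5%) and 1 higher, with a median of -1.59. Their summed level was 10240, 11600 and 14280 CPM in the day 1 libraries and 4251, 3840 and 4619 CPM in those of day 9. Troponin T from tnt-2 (X, 8721546 to 8723550) is part of the calcium switch of contraction, and its transcripts had 236, 256 and 314 CPM on day 1, then 10.8, 6.08 and 10.3 CPM on day 9 (-4.90 ± 0.30, adjusted p = 4.0e-07). The myosin light chain genes mlc-2 and mlc-1 fell from 556, 569 and 459 to 56.03, 34.3 and 55.9 CPM (-3.44 ± 0.23) and by 3.11. For unc-54 the day 9 values were 124, 62.2 and 162 CPM, below the lowest day 1 library as well as the high replicate 3 (-2.80 ± 0.48). The member that rose was dyb-1, which encodes dystrobrevin, from 5.98, 4.63 and 6.56 to 15.99, 21.8 and 13.99 CPM (1.59 ± 0.24), and this count of 1 became 2 with upper-quartile scaling and 3 without day 1 replicate 3. In the same list myo-3 fell (-1.52 ± 0.45), but was not called without day 1 replicate 3 or day 9 replicate 2 (adjusted p = 0.085 and 0.061). Of 17 pharyngeal genes 3 rose (17.6%, beside 21.9% of all genes) and 1 fell (5.88%, beside 21.5%). The 1 fall became 2 without wild-type day 1 replicates 1 or 2 and 3 without daf-2 day 1 replicate 2. The developmental gene pha-1 rose by 0.49 ± 0.19 (adjusted p = 0.0481), but was not called with no filter on low counts, with thinned counts, or without any 1 of the day 9 libraries of either genotype, wild-type day 1 replicate 3 or daf-2 day 1 replicates 2 or 3 (adjusted p = 0.051 to 0.171).

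Matrix genes fell more often than they rose. Of 21 basement membrane genes 8 fell and 1 rose, and the fall of nid-1, which encodes nidogen, was from 123.2, 130.3 and 87.6 to 37.6, 24.6 and 47.3 CPM (-1.64 ± 0.22). The perlecan gene unc-52 and the collagen IV gene let-2 fell by 1.62 and 1.199, each highest in day 1 replicate 3 (71.2, 70.5 and 172 CPM for unc-52). Without that library the change of let-2 was -0.79. The 1 rise, dgn-1 for dystroglycan (0.66 ± 0.15), became 2 with DESeq2's size factors, with upper-quartile scaling, with a minimum count of 50, with DESeq2, with counts thinned to the smallest library or without day 1 replicate 1. Hedgehog-related genes encode secreted and membrane proteins largely of the epidermis and glia. Of 58 tested, 18 fell (31%, beside 21.5% of all genes) and 13 rose (22.4%, beside 21.9%). Among them grd-10 fell from 8.62, 6.48 and 17.4 to 0.440, 0.198 and 0.104 CPM (-5.58 ± 0.58). The 13 became 7 with a minimum count of 50 and 8 without day 1 replicate 2. Of 22 genes of the hypodermis and seam 4 fell (18.2%, beside 21.5% of all genes) and 2 rose (9.09%, beside 21.9%), the latter 1 without day 9 replicate 2. Of 11 genes of coelomocytes and gonadal sheath 0 fell and 2 rose (18.2%, beside 21.9% of all genes). The 2 became 1 in a fit of the daf-2 libraries alone or without day 1 replicates 1 or 2 or day 9 replicates 2 or 3. Tubulin genes fell in 6 of 14 cases and rose in 2, which became 5 and 4 with upper-quartile scaling. Among them mec-12, a tubulin of touch neurons, fell from 10.03, 10.5 and 12.9 to 3.76, 2.67 and 4.31 CPM (-1.64 ± 0.23), and tbb-6 (V, 12261531 to 12263368) rose from 13.04, 11.795 and 9.98 to 50.8, 58.3 and 43.1 CPM (2.13 ± 0.18).

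Most neuronal genes were not called. Of 84 neuropeptide genes 13 fell (15.5%, beside 21.5% of all genes) and 8 rose (9.52%, beside 21.9%), which became 8 without day 1 replicate 1 or day 9 replicate 2 and 5 without day 1 replicate 3 or day 9 replicate 1. Named by the rule were the rise of nlp-39, from 3.26, 3.42 and 0.857 to 15.7, 15.3 and 28.4 CPM (2.99 ± 0.42), and the fall of flp-28, from 31.6, 37.4 and 17.1 to 12.79, 15.6 and 15.3 CPM (-0.97 ± 0.24). Of 46 synaptic and neurotransmitter genes 6 rose (13%, beside 21.9% of all genes) and 3 fell (6.52%, beside 21.5%). The 3 became 1 with upper-quartile scaling or without daf-2 day 9 replicates 1 or 2 and 5 without wild-type day 1 replicate 3. The serotonin transporter gene mod-5 rose from 1.196, 0.895 and 1.1999 to 4.76, 6.24 and 4.21 CPM (2.198 ± 0.23, adjusted p = 1.9e-05), and the vesicular glutamate transporter gene eat-4 by 1.55 ± 0.37. Lower were bas-1, an aromatic amino acid decarboxylase of serotonin and dopamine synthesis (18.4, 17.4 and 14.6 to 7.67, 6.54 and 8.25 CPM, -1.17 ± 0.16), and the vesicular acetylcholine transporter gene unc-17 (-1.15 ± 0.41). The call of unc-17 was lost with no filter on low counts, with counts thinned to the smallest library, with upper-quartile scaling or without daf-2 day 1 replicates 1 or 3, daf-2 day 9 replicates 1, 2 or 3 or wild-type day 9 replicates 1 or 2 (adjusted p = 0.054 to 0.14). The rise of unc-49, a GABA receptor gene (0.91 ± 0.25), was not called without day 9 replicate 2 (0.75, adjusted p = 0.055).

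Germline lists showed no common fall in the FUdR-treated mutant. Of 55 oocyte and germline genes 7 rose (12.7%, beside 21.9% of all genes) and 8 fell (14.5%, beside 21.5%), with a median of -0.011. The rises became 3 without day 1 replicate 1 and 2 without day 9 replicate 2. The falls became 13 without day 1 replicate 1. The RNA granule genes car-1 and cgh-1 fell from 744, 1071 and 1301 to 354, 297 and 317 CPM (-1.69 ± 0.21) and from 1558, 2366 and 2360.1 to 932, 986 and 1268 CPM (-0.98 ± 0.19), whereas perm-4 rose as given above. Of 45 cell division and replication genes 11 rose (24.4%, beside 21.9% of all genes) and 5 fell (11.1%, beside 21.5%). The kinase gene cdk-2 rose from 35.1, 38.4 and 39.0 to 51.95, 59.7 and 53.5 CPM (0.55 ± 0.098) and the replication clamp gene pcn-1 by 0.52 ± 0.11, while the ribonucleotide reductase gene rnr-1 fell by 0.60. The 11 became 19 with upper-quartile scaling and 7 without day 1 replicate 1 or day 9 replicate 3, and the 5 became 3 with upper-quartile scaling.

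Sperm and histone genes that were called were mostly higher, at low and uneven levels. Of 89 sperm genes 24 rose (27%, beside 21.9% of all genes) and 1 fell, the latter 0 in some settings, with a median of 1.29, and the 24 became 15 with a minimum count of 50 or without day 1 replicate 1, 11 without day 1 replicate 2, 13 without day 9 replicate 1, 12 without day 9 replicate 2 and 41 without day 9 replicate 3. Low members could pass the filter through their higher age alone, so no direction is read from this median. The sperm genes held 0.0191, 0.0203 and 0.0320% at day 1 and 0.0685, 0.0607 and 0.0353% at day 9 of counts, so that day 9 replicate 3 barely exceeded day 1 replicate 3 (exact two-sided permutation test, p = 0.1). Best measured was spe-41 (III, 3439011 to 3444210), a calcium channel gene of sperm, at 8.499, 11.7 and 11.36 CPM on day 1, then 39.1, 48.5 and 37.5 CPM on day 9 (1.99 ± 0.16, adjusted p = 2.6e-06). Of 51 histone genes, a list not limited to replication-dependent ones, 18 rose (35.3%) and 1 fell (0 to 2 over the settings). The 18 became 11 without day 1 replicate 3. Many histone genes are near-identical copies, so single values are uncertain. In the same list his-72, an H3.3 gene, rose from 294, 226 and 237 to 333, 331 and 322 CPM (0.38 ± 0.11), a call lost without day 1 replicate 2 or 3 (adjusted p = 0.059 and 0.069).

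Nuclear regulators added smaller changes. Of 196 nuclear hormone receptor genes 29 fell (14.8%, beside 21.5% of all genes) and 24 rose (12.2%, beside 21.9%). The gene nhr-114, a receptor of the gut and germ line, fell from 43.8, 40.02 and 48.4 to 8.51, 6.38 and 7.57 CPM (-2.56 ± 0.21), and nhr-18 rose by 1.38 ± 0.16. With upper-quartile scaling 23 fell and 35 rose. The 29 became 19 without day 9 replicate 2. Of 130 F-box fbxa genes 37 rose (28.5%) and 18 fell, the latter 10 without day 1 replicate 1 and 8 without day 9 replicate 2, with fbxa-165 rising from 0.454, 0.158 and 0.557 to 9.51, 9.25 and 11.75 CPM and fbxa-74 falling by 1.76. Of 36 splicing genes 10 fell (27.8%, beside 21.5% of all genes) and 4 rose (11.1%, beside 21.9%), and with upper-quartile scaling 8 did each. The spliceosomal Sm gene snr-2 fell from 281, 265 and 254 to 156, 147 and 150.1 CPM (-0.82 ± 0.094) and exc-7, an ELAV-like RNA-binding protein gene, rose by 0.74 ± 0.15.

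Whether daf-2 adults aged differently from wild type was tested gene by gene as the interaction, the daf-2 change less the wild-type change. Of 15523 genes 821 were called (5.29%), 732 with a negative value (4.72%), where daf-2 changed more downward or less upward than wild type, and 89 with a positive one (0.573%). In wild type alone 56.8% of genes were called, of which 4848 rose (31.2%) and 3970 fell (25.6%). The 2 ageing comparisons share no library. Of the genes that rose in daf-2, 2710 also rose in wild type (79.8% of the daf-2 list and 55.9% of the wild-type list), and 2417 fell in both (72.6% and 60.9%). Genes called in opposite directions were few, 81 that fell in daf-2 and rose in wild type and 8 of the reverse, and in 88 of these 89 the interaction was called. The counts depended on single libraries. The 732 became 484 when either replicate 2 of wild-type day 1 or replicate 1 of wild-type day 9 was left out, 404 and 415 without wild-type day 9 replicates 2 and 3, 411 and 472 without daf-2 day 1 replicates 1 and 2, and 463 and 464 without daf-2 day 9 replicates 1 and 2. The 89 became 193, 40 and 142 without wild-type day 1 replicates 1, 2 and 3, 44, 29 and 29 without those of day 9, 38, 52 and 233 without daf-2 day 1 replicates 1, 2 and 3, and 50 and 41 without daf-2 day 9 replicates 1 and 2.

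**Figure D5:**
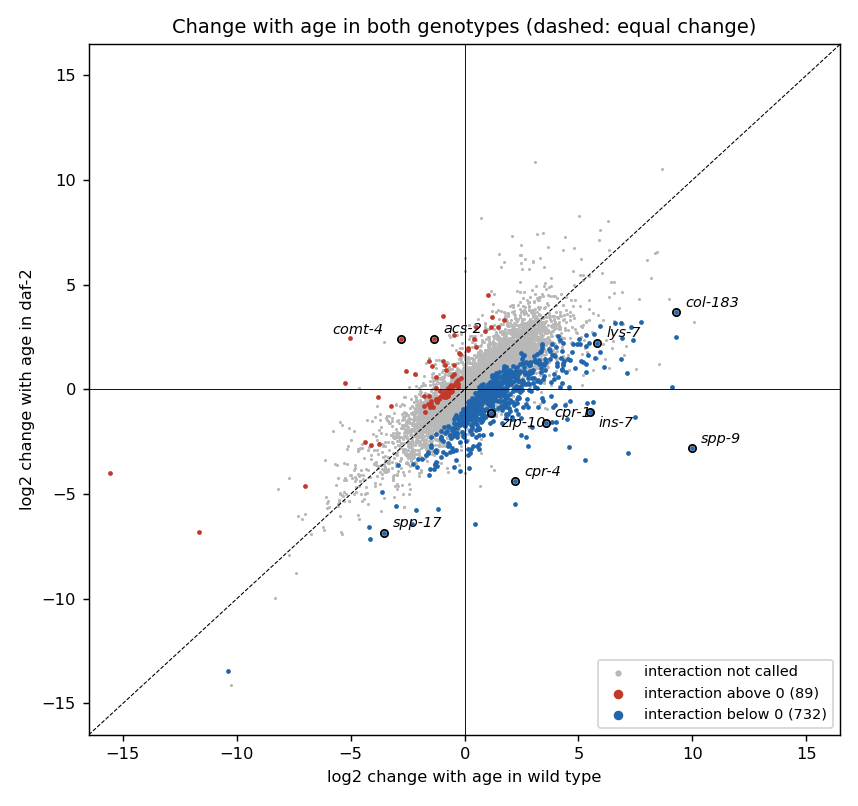
Log2 change from day 1 to day 9 in daf-2 against that in wild type, 1 point per gene tested, with the dashed line at equal change. Of the 821 genes with a called interaction 732 lie below the line (blue) and 89 above it (red).

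Several immune and gut genes fell in daf-2 and rose in wild type. The cathepsin gene cpr-4 changed by -4.38 ± 0.59 in daf-2 and by 2.23 ± 0.54 in wild type, which had 25.7 ± 5.79 CPM on day 1 and 121 ± 56.1 CPM on day 9 (SD, n = 3), an interaction of -6.604 ± 0.80 (adjusted p = 8.9e-04). Its relative cpr-1 went from 11.7, 12.27 and 17.2 to 5.36, 2.88 and 5.68 CPM in daf-2 (-1.58 ± 0.42), against 3.56 ± 0.42 in wild type (interaction -5.14 ± 0.59, adjusted p = 7.0e-04). In all, 5 of 8 cathepsin B-like genes had a negative called interaction, which became 2 without wild-type day 1 replicates 2 or 3, wild-type day 9 replicates 1 or 2, daf-2 day 1 replicates 1 or 2 or daf-2 day 9 replicates 1 or 2, and 3 with counts thinned to the smallest library, with a replicate block or without daf-2 day 1 replicate 3. So did 12 of 24 saposin-like genes (11 to 18, the last without daf-2 day 1 replicate 3) and 8 of 13 lysozyme genes (4 to 9, the first without daf-2 day 1 replicate 1). A negative interaction need not mean opposite courses, as lys-7 and ilys-3 rose in both genotypes. PMK-1 effectors, intestinal genes and aspartyl proteases mostly fell in wild type too where called. There 13 of 19 PMK-1 effectors fell and 4 rose, 12 of 25 intestinal genes fell and 5 rose, and 7 of 13 aspartyl proteases fell and 3 rose. Other immune lists rose more often than they fell in wild type. Of 118 C-type lectins 42 rose and 28 fell, and of 19 caenacins and related peptides 12 and 3. For 14 fungus-induced and related peptides the counts were 7 and 3, and for 16 PMK-1 pathway components 11 and 1. The opposite courses also included zip-10, which rose by 1.14 ± 0.32 in wild type (interaction -2.25 ± 0.46, adjusted p = 0.0155), and the kinase gene sgk-1 (0.67 ± 0.18 in wild type, interaction -1.34 ± 0.25). The arginine kinase gene argk-1 (-1.90 ± 0.42 in daf-2, 3.97 ± 0.46 in wild type) and the lipid-binding protein gene far-3 (-1.58 ± 0.33 and 4.02 ± 0.37) were picked from the 88 after their values were seen. The agonist gene ins-7 was not called in daf-2, where it had 1.09 ± 0.112 CPM on day 1 and 0.511 ± 0.219 CPM on day 9 (SD, n = 3), and it rose by 5.50 in wild type (interaction -6.598 ± 0.67, adjusted p = 2.5e-04).

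Another set rose in both genotypes but less in daf-2. The lysozyme gene lys-7 started from 795 ± 55.8 CPM in daf-2 and rose by 2.23, against 5.83 in wild type from 97.5 ± 28.9 CPM (interaction -3.61 ± 0.32, adjusted p = 1.1e-04). For ilys-3, tts-1, cnc-4 and col-183 the interactions were -4.52, -2.78, -3.08 and -5.60. Of these, ilys-3 and col-183 started from only 0.215 and 0.135 CPM in wild type (day 1 means). The gene dct-8 rose from 12.34, 12.7 and 4.54 to 13.8, 31.4 and 17.4 CPM in daf-2 (1.09 ± 0.37) and by 6.14 ± 0.50 in wild type (interaction -5.05 ± 0.61). Its rise in daf-2 was not called without day 1 replicate 3 (0.69, adjusted p = 0.086), without day 9 replicate 2 (0.66, adjusted p = 0.161) or in a fit of the daf-2 libraries alone (adjusted p = 0.073).

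Positive interactions were fewer. The methyltransferase family gene comt-4 (V, 2049217 to 2050185) had 8.62, 8.74 and 4.59 CPM on day 1, then 37.6, 40.7 and 37.02 CPM on day 9 in daf-2 (2.40 ± 0.58), while in wild type, with 21.8 ± 19.9 CPM on day 1 and 3.09 ± 0.777 CPM on day 9, it fell by 2.80 (interaction 5.201 ± 0.84, adjusted p = 0.0052), or by 1.82 without wild-type day 1 replicate 2. For acs-2 wild type had 49.3 ± 40.5 CPM on day 1 and 19.6 ± 8.45 CPM on day 9, a change that was not called (-1.33 ± 0.60, adjusted p = 0.0762), and the interaction was 3.75 ± 0.86 (adjusted p = 0.0272). That interaction was not called without wild-type day 1 replicate 2, wild-type day 9 replicates 2 or 3, daf-2 day 1 replicates 1 or 2, or daf-2 day 9 replicate 1 (3.45 to 3.802, adjusted p = 0.056 to 0.074). The gene sosi-1 rose from 5.07, 3.63 and 4.24 to 26.8, 34.8 and 28.5 CPM in daf-2 (2.79 ± 0.24) and by 0.89 in wild type (interaction 1.91 ± 0.33, adjusted p = 0.0071), and gst-38 fell by 2.49 in daf-2 and 4.38 in wild type (interaction 1.89 ± 0.32).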

How the data were processed

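RNA from whole animals was sequenced in 12 libraries, of which the 6 daf-2 ones are described. The authors deposited gene-level read counts, and the values used were whole numbers. Per the submitters' processing notes STAR 2.7.0e, RSEM 1.3.1, DESeq2 1.22.2 and the WBcel235 build were named, without their order or role, and per the labels' protocols the libraries were unstranded. Reads of a gene and an antisense partner cannot be told apart, and the sources do not state how reads shared by near-identical copies were split. Genes were filtered with filterByExpr (minimum count 10) and tested with edgeR 4.0.16 (R 4.3.3, TMM scaling, quasi-likelihood test, 1 fit of 4 group means over 12 libraries), after tests on simulated data. Alternatives included DESeq2 1.42.0, other scalings and filters, thinning, a replicate block and leaving out each library. Shares were compared with exact permutation tests.

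Members and gene lists were chosen with earlier results of these data known. Named genes were called, reached 10 CPM, had at least 10 counts in the lower group and did not overlap between ages: the 12 steepest changes each way, the 6 largest in CPM, the largest each way in each list and the 6 largest interactions each way. In addition daf-2, daf-16, hsf-1, skn-1, pmk-1, zip-10, ins-7 and sod-3 were named whatever their values. Others named are list members or lost calls, seen with their values. Intervals and p-values cover the spread between libraries only.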

Additional observations from a re-analysis of the deposited data

Results flagged for a closer look

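The change with age differed between daf-2 and wild type, by edgeR's interaction test, in 821 genes. Among the genes named by rule, the interaction, in log2 units of daf-2 minus wild type, was -12.76 for spp-9, -6.60 for cpr-4, -6.60 for ins-7, -5.60 for col-183, -5.14 for cpr-1, -5.05 for dct-8 and -4.52 for ilys-3. It was -4.33 for clec-61, a value that became -6.53 without wild-type day 1 replicate 1. In wild type the day 1 means were 0.02 CPM for spp-9, 0.0174 for clec-61, 0.135 for col-183 and 0.215 for ilys-3. From levels that close to absent the size of these 4 values is uncertain. The fall of spp-9 in daf-2 was also not called without daf-2 day 1 replicate 3 (-1.46, adjusted p = 0.085).

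Smaller negative interactions were -3.61 for lys-7, -3.30 for spp-17, -3.08 for cnc-4, -3.06 for col-93, -2.98 for pud-4, -2.78 for tts-1, -2.55 for fat-7, -2.25 for zip-10, -1.90 for vit-5, -1.62 for hsp-17 and -1.28 for tbb-6. Of these, col-93 was not called without daf-2 day 9 replicate 2 (-2.78, adjusted p = 0.055). The interaction of vit-5 was not called without wild-type day 1 replicate 3, wild-type day 9 replicates 2 or 3, daf-2 day 1 replicate 2 or daf-2 day 9 replicate 1 (adjusted p = 0.0505 to 0.068), nor that of hsp-17 without wild-type day 1 replicate 2, wild-type day 9 replicates 2 or 3 or daf-2 day 1 replicates 1 or 2 (adjusted p = 0.0502 to 0.065).

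Positive interactions were 0.57 for snr-2, 1.73 for ugt-1, 1.89 for gst-38, 1.91 for sosi-1, 3.75 for acs-2 and 5.201 for comt-4. Those of snr-2 and ugt-1 were each not called without any 1 of 7 libraries (adjusted p = 0.055 to 0.089 and 0.061 to 0.088). These included wild-type day 1 replicate 2, wild-type day 9 replicates 1 and 2, and daf-2 day 1 replicate 2 and day 9 replicate 2 for both genes. They also included wild-type day 9 replicate 3 and daf-2 day 9 replicate 1 for snr-2, and daf-2 day 1 replicate 1 and day 9 replicate 3 for ugt-1. The entries named pud-2.2 had -2.41 and 11.57, and as they are near-identical copies with equal counts in daf-2 at day 9 neither value is secure.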

How the results depend on the processing

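Of 129 genes named by rule, 114 kept their direction and side of the threshold for the change with age in daf-2 under the alternatives run, and 15 changed in at least 1. The counts of genes higher and lower in daf-2 were 3416 and 3194 with DESeq2's size factors, 3383 and 3052 with no filter, 2908 and 2867 with a minimum count of 50, 3613 and 3364 with DESeq2, 3281 and 3207 with thinned counts and 2989 and 2889 from the daf-2 libraries alone. Leaving out 1 library gave 2552 to 3537 higher and 2640 to 3494 lower. The 89 positive interactions became 168 with a minimum count of 50 and 481 with DESeq2, and 29 to 233 without 1 library. The 732 negative ones became 1155 with DESeq2 and 404 to 1097 without 1 library. The day 9 minus day 1 share of ribosomal protein genes, 0.544 percentage points, was -0.748 outside vitellogenin counts and -0.0093 to 0.859 without 1 library, and the cause was not tested beyond that change of denominator. Same-numbered daf-2 libraries did not deviate together (r = 0.038, -0.014 and -0.31), so the numbers were not taken as pairs. With the replicate block 3451 genes rose and 3382 fell in daf-2, and 84 and 658 interactions were positive and negative. With 3 libraries a group, small changes of low genes are not detectable at this depth.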

Other observations

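The pals genes, a family whose members are known to respond to intracellular pathogens in wild-type worms, were looked at after a run of 7 rising neighbours was seen on chromosome I between 13107492 and 13138544. Of 38 annotated members 31 were tested, 17 rose and 3 fell in daf-2 (pals-17, pals-23 and pals-24), with a median change of 1.18. Over all genes 21.9% rose and 21.5% fell. In the run pals-3, pals-5, pals-8, pals-9 and pals-12 reached at most 0.619 CPM in any day 1 library. The span of pals-12 (13107492 to 13109778) lies inside that of pals-3 (13107492 to 13114188), so their counts may not be separate. In wild type 22 rose and 0 fell, with a median of 2.19, and the interaction was called for 4. Low members could pass the filter through a single group where they are high, so no direction is read from the family's counts or medians. Runs of at least 5 neighbours that were called in 1 direction and at least 2-fold numbered 14. One of them held 7 genes of chromosome II between 1004616 and 1023528, which fell by -6.83 to -4.36 on the log2 scale, and another held C54F6.6, C54F6.5 and 3 neighbours on chromosome V between 7521900 and 7529450, which rose by 2.64 to 5.66.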
